A study of Mus musculus with 12 samples.

Results

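The genes that copy DNA and supply its building blocks were followed as 1 group of 48 in mouse dental epithelial colonies of 3 genotypes. They were chosen by name and by the role of their product, with earlier results of these data known. A probe was taken for a gene where its RefSeq accession carried that gene's symbol. Of the 48 genes, 47 had at least 1 probe, 56 probes in all, and Gins1 had no matched probe. All 47 passed the filter on dim probes and stood among 31064 genes tested. They were well above background on each of the 12 arrays, except Prim2 in wild-type colony 3. By role, 11 act in the licensing of replication origins, among them its inhibitor Gmnn. A further 6 (5 with a probe) activate the replicative helicase, 9 are DNA polymerase or primase subunits and 7 form or load the sliding clamp. Of the rest, 5 bind single strands or process and join fragments, 5 supply nucleotides, and 5 protect the fork or copy chromatin behind it.

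The colonies were grown in culture from the labial cervical loop, the epithelial stem cell niche at the base of the ever-growing mouse incisor, and RNA of each single colony went onto its own 1-colour Agilent array of the whole mouse genome. The double null colonies lacked Bmi1 together with the Ink4a/Arf locus, the Bmi1 null colonies lacked Bmi1 alone, and the wild-type colonies carried neither deletion; there were 4 of each (replicates 1 to 4 of both mutants, and 1, 3, 4 and 5 of wild type). All came from mice of mixed genetic background, and no colony lacked the Ink4a/Arf locus alone. How many animals gave rise to the colonies is not stated in the labels, so p-values measure only the spread between colonies, which may be technical.

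A replication origin is licensed in G1 phase when the origin recognition complex, Cdc6 and Cdt1 load the ring-shaped Mcm helicase, and it fires in S phase when Cdc45 and the GINS complex join that ring. Polymerases then extend primers, held to DNA by the Pcna clamp, while Tk1, Tyms, Dut and ribonucleotide reductase keep deoxynucleotides available. Many of these genes are transcribed at S phase entry by E2F factors, which the retinoblastoma proteins hold back until cyclin-dependent kinases act. Bmi1, a Polycomb protein, represses the Ink4a/Arf locus (gene Cdkn2a), whose products are Ink4a, an inhibitor of the kinases that work with D-type cyclins, and Arf, an activator of p53. Cdkn1a, a p53 target, encodes a further inhibitor of cyclin-dependent kinases that also binds Pcna. The cervical loop holds slowly dividing stem cells and their fast-dividing progeny.

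Levels are log2 processed signals less each array's 75th percentile. A single gene's level was compared between genotypes, never with that of another single gene. The replication genes' median level on each array is also set beside that of all genes. Per array the median signal was 63.4 to 150 in double null, 82.9 to 190 in Bmi1 null and 109 to 210 in wild-type colonies, over a median local background of 17 to 23. The interquartile range of log2 signals was 4.16 to 4.93 in double null and 4.32 to 4.68 in Bmi1 null colonies but 2.49 to 2.62 in wild-type colonies. Bmi1 was at -2.54 ± 0.20 (SD, n = 4) in double null, -2.36 ± 0.15 in Bmi1 null and -0.27 ± 0.46 in wild-type colonies. Cdkn2a was well above background on 0 of 4 double null, 4 of 4 Bmi1 null and 0 of 4 wild-type arrays. Against Bmi1 null colonies, Cdkn2a in double null ones was lower by at least 2.53-fold (limma, adjusted p = 6.33e-06). Against wild type, Cdkn2a in Bmi1 null colonies was higher by at least 1.76-fold (adjusted p = 9.63e-06). Both Cdkn2a calls ended with normexp background correction (adjusted p = 0.929 between the mutants and 0.737 against wild type). Whether the probes lie within the deleted exons was not analysed here.

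Setting double null beside Bmi1 null colonies shows what differs when the Ink4a/Arf locus is lost on top of Bmi1. Replication genes were higher in double null colonies in every role group: 22 of 47 rose, 0 fell and 25 were not called (limma, Benjamini-Hochberg adjusted p under 0.05). Of all genes tested, 2.75% were called higher and 4.8% lower. Higher calls were thus 36.4% of all calls, and 46.7% with median scaling. All 47 had a log2 fold change above 0, as had 44% of all genes, and their median was 0.84, beside -0.070 over all genes. The change was at least 1 on the log2 scale, a doubling of signal, for 16 of 47 replication genes and for 3.32% of all genes. In 34 of 47 the 4 double null colonies all lay above the 4 Bmi1 null colonies, and 6.35% of all genes did so. The RNA came from whole colonies, so more cells in S phase and more RNA per cell cannot be told apart.

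**Figure D1:**
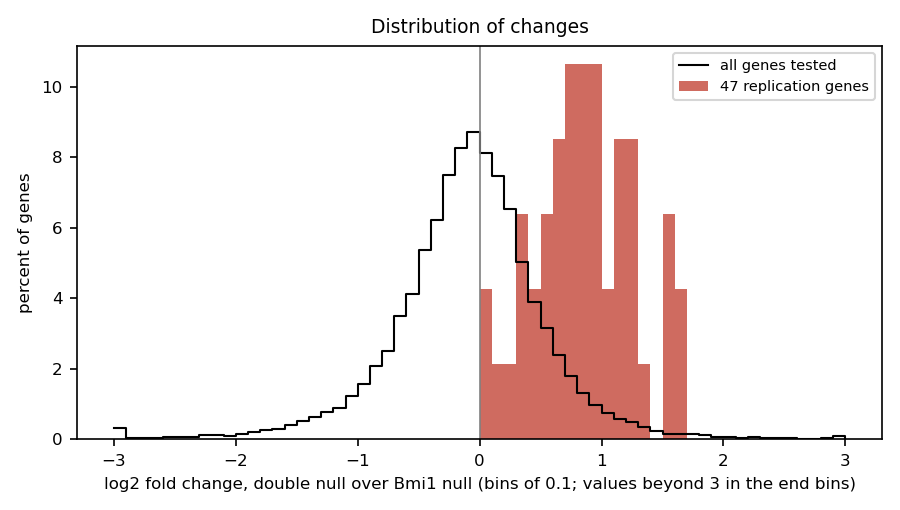
Percent of genes (vertical axis) in bins of the log2 fold change of double null over Bmi1 null colonies (horizontal axis) for 47 replication genes (filled bars) and all 31064 genes tested (line). All 47 replication genes lie above 0, between 0.049 and 1.64, while the median of all genes is -0.070.

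How the arrays were divided among slides bears on this count. Only slides 2 and 3 held both mutants. Within slide 2 (1 double null and 1 Bmi1 null array) the replication genes' median log2 difference was 0.99, with 46 of 47 above 0. Within slide 3 (2 double null arrays and 1 Bmi1 null array) it was 0.86, with 45 of 47 above 0. With slide as a fixed term in the fit all 47 changes stayed above 0, but 3 of 47 were called, Lig1, Mcm6 and Tk1, beside 0.315% of all genes called higher. Quantile normalization gave 14 calls, beside 1.69% of all genes called higher, and leaving out double null colony 3 gave 14, beside 1.5%. Of the 22, 14 stayed called whichever array was left out. With only the 8 mutant arrays in the fit, 15 of the 47 were called, beside 347 of all 31064 genes called higher. Wild-type arrays then added nothing to the estimate of spread. Clspn, Mcm10 and Pold3 lost their calls there (limma, adjusted p = 0.0587, 0.0616 and 0.0685). Cdc45, Gins2, Pold2, Pole and Rfc3 lost theirs too. Of the 15 called there, 14 were among the 22, and the other was Mcm2. The calls of Cdc45, Pcna, Pold2, Pole, Pole2, Rfc1, Rfc3 and Uhrf1 ended without at least 1 array. Uhrf1 lost its call without Bmi1 null or double null colony 3. Cdc45, Pcna and Rfc1 each lost it without any of 5 arrays, namely Bmi1 null colonies 2, 3 and 4, double null colony 3 and double null colony 1 (Cdc45) or 4 (Pcna and Rfc1). Pole2 did so without any of 7 arrays, Rfc3 without any of 9, and Pold2 and Pole without any of 11 of the 12 arrays.

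The calls were also compared across 4 scalings of the arrays (75th percentile, median, quantile normalization and the authors' processed values). Of the 47, 13 were called higher in all 4: Gmnn, Mcm5 and Mcm6 among licensing genes, Gins2 and Mcm10 among helicase activators, Pold3, Dscc1, Fen1 and Rpa2 on the fork, Dut, Tk1 and Tyms in nucleotide supply, and Clspn in fork protection. Of all genes, 1.51% were called higher in all 4. The median change was largest in nucleotide supply (1.55) and in strand binding and joining (1.13), and it lay between 0.73 and 0.87 in the other 5 groups. Whether groups or subunits differ from each other was not tested.

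The promoters of these genes were read for letters that E2F proteins bind. Many of these genes are E2F targets, as stated above, so a high share could be foreseen from the choice of genes. The promoters are RefSeq's, on GRCm38.p6, from 250 bases before to 50 after each transcription start. A promoter was listed for 38 of the 48 genes, and Gins1, Gins2, Gins4, Gmnn, Mcm4, Tipin, Dscc1, Rfc2, Prim2 and Pole had none listed. The E2F letters searched were TTTCCCGC, TTTGGCGC, TTTCGCGC and TTTGCCGC on either strand; matches may overlap. They stood in promoters of 16 of 38 replication genes (42.1%), beside 3.63% of the 13577 tested genes with a listed promoter and 2.6% of all 27025 genes in the table. The CCAAT box, a site for the factor NF-Y, searched as CCAAT on either strand, stood in 24 of 38 (63.2%), beside 42.4% of tested genes. The cell cycle element CHR, searched as TTTGAA on either strand, stood in 5 of 38 (13.2%), beside 17.2% of tested genes. An E2F match was found in 8 of the 18 replication genes that rose and have a listed promoter, and in 8 of the 20 that were not called. A match describes the letters only.

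The promoters of 5 genes are shown whole, so that each of 5 roles has a called gene whose letters can be read beside its values: in its role each had the largest called rise among genes with a listed promoter, and Cdc45 and Pold3, with the smaller such rises of the other two roles, are not shown whole; capitals mark an E2F match, and the sequence runs 5′ to 3′ on the gene's strand. Clspn is at chr4:126556730-126557029 on the plus strand, with 1 match that starts 21 bases after the transcription start. Tk1 is at chr11:117825965-117826264 on the minus strand, with no match in this window. Rpa2 is at chr4:132768110-132768409 on the plus strand, also with none. Mcm5 is at chr8:75109259-75109558 on the plus strand, with 2 overlapping matches that start 153 and 149 bases before the start. Pcna is at chr2:132253131-132253430 on the minus strand, with none.
Clspn: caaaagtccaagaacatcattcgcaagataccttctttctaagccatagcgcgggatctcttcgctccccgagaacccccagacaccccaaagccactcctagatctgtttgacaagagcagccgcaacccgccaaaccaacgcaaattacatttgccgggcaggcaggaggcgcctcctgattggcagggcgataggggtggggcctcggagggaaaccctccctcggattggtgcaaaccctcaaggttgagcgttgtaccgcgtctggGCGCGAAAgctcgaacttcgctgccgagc
Tk1: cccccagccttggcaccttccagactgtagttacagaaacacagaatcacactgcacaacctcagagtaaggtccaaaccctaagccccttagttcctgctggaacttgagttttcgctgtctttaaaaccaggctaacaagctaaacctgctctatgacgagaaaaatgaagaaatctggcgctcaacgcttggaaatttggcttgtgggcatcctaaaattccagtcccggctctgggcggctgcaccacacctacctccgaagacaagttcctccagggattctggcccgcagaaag
Rpa2: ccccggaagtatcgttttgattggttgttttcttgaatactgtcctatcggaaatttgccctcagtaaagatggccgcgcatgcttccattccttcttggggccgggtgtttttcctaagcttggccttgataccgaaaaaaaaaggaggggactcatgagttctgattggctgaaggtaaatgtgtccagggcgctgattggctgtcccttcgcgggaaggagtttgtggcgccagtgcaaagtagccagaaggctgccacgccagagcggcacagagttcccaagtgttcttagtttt
Mcm5: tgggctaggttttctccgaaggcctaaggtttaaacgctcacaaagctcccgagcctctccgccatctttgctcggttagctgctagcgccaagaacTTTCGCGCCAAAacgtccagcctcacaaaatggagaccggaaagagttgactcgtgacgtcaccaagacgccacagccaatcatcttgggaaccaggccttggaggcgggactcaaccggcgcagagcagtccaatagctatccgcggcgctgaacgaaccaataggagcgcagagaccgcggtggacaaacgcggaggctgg
Pcna: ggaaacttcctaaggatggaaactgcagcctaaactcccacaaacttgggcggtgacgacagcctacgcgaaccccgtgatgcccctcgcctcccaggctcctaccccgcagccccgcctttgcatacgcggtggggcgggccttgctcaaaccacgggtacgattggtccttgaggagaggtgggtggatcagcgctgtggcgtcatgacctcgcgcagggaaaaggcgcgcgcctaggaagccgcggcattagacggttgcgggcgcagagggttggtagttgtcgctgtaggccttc

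In 6 other genes that rose the E2F match is shown with 10 bases on each side. These windows were chosen after the data were seen, as called genes with a match whose promoter is not printed above; where a gene has several matches, the window starts from 1 of them. They lie at chr1:128359798-128359825 (Mcm6, minus strand), chr7:100121468-100121495 (Pold3, minus), chr12:69228163-69228190 (Pole2, minus), chr5:151651201-151651228 (Rfc3, minus), chr7:13278842-13278869 (Lig1, plus) and chr17:56304118-56304145 (Uhrf1, plus). Capitals mark the matches; in Mcm6 and Rfc3 a second match falls within the window.
Mcm6: ggcgtatgctTTTGGCGCGAAAagtgcg
Pold3: agcgaagctgTTTCCCGCcggcgggagc
Pole2: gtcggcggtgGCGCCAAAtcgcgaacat
Rfc3: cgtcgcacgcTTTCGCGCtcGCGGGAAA
Lig1: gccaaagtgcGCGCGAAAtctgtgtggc
Uhrf1: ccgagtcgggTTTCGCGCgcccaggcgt

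Origin licensing came first among the roles. Of its 11 genes, 3 rose in double null over Bmi1 null colonies, and levels below are given in the order of the replicate numbers. Mcm5, a subunit of the helicase ring, read 1.31, 1.39, 1.52 and 1.11 in double null, -0.027, -0.037, 0.13 and 0.21 in Bmi1 null and -0.20, 0.23, 0.13 and 0.06 in wild-type colonies. The double null colonies all lay above the other 8, and the Bmi1 null and wild-type colonies overlapped; Mcm5 rose by 1.26 ± 0.17 (SE) on the log2 scale, or 2.40-fold (limma, adjusted p = 0.00152). Mcm6, of the same ring, read 0.55, 0.68, 0.55 and 0.54 in double null, -0.32, -0.93, -0.82 and -0.33 in Bmi1 null and -0.37, -0.52, -0.19 and -0.12 in wild-type colonies. It too was higher in all 4 double null colonies than in the other 8, and it rose by 1.18 ± 0.19 (adjusted p = 0.00386). Gmnn, which encodes geminin, the inhibitor of Cdt1, rose by 0.997 ± 0.16 (adjusted p = 0.0033), with a mean of 0.78 ± 0.037 in double null and -0.22 ± 0.15 in Bmi1 null colonies (SD, n = 4 each).

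The other ring subunits had smaller changes that were not called. Mcm2 read 0.42, 0.57, 0.16 and 0.069 in double null, -0.44, -0.74, -0.65 and -0.50 in Bmi1 null and -2.38, -1.71, -1.48 and -0.97 in wild-type colonies. The mutants did not overlap and all wild-type colonies were lower still, and the change between the mutants was 0.89 ± 0.26 (adjusted p = 0.0618); Mcm2 was called with median scaling (adjusted p = 0.0472). Mcm7 read 2.59, 2.23, 2.83 and 2.41 in double null, 2.24, 1.77, 2.23 and 2.11 in Bmi1 null and 0.32, 0.93, 0.66 and 1.41 in wild-type colonies. Double null and Bmi1 null colonies overlapped in Mcm7, at a change of 0.43 ± 0.24 (adjusted p = 0.344), the smallest of the 11, while all wild-type colonies were lower. Mcm3 was at 0.80 and Mcm4 at 0.76, both without overlap between the mutants. The loaders were not called either: the change was 0.93 for Orc1 and 0.69 for Orc6, both subunits of the origin recognition complex, 0.78 for Cdc6 and 0.80 for Cdt1. Orc1 and Orc6 did not overlap between the mutants, whereas Cdc6 and Cdt1 did, and the adjusted p of these 4 ran from 0.0676 to 0.203.

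Helicase activation followed, with 3 of 5 genes higher. Cdc45, which rides with the helicase at the fork, read 1.18, 0.83, 1.29 and 0.46 in double null, 0.066, -0.16, -0.0077 and -0.094 in Bmi1 null and -1.66, -1.41, -1.17 and -0.72 in wild-type colonies. The 3 genotypes did not overlap, with double null highest and wild type lowest. Cdc45 rose by 0.99 ± 0.24 between the mutants (limma, adjusted p = 0.0258). Its call ended with quantile normalization (adjusted p = 0.126), with slide as a fixed term (0.119) and with replicate number as a fixed term (0.0538). Mcm10, needed to start the assembled helicase, read 0.067, -0.22, -0.17 and -0.77 in double null, -1.06, -1.17, -1.40 and -1.23 in Bmi1 null and 0.38, -0.019, 0.37 and 0.30 in wild-type colonies. Double null colonies lay above all Bmi1 null colonies, and 3 of the 4 lay below every wild-type colony; Mcm10 rose by 0.94 ± 0.21 (adjusted p = 0.0161). Gins2, a GINS subunit, rose by 0.79 ± 0.17 (adjusted p = 0.0143). The other GINS subunits measured were not called. Gins3 read -2.28, -2.45, -2.10 and -2.52 in double null, -2.54, -2.65, -2.40 and -2.10 in Bmi1 null and -1.28, -2.09, -1.52 and -1.81 in wild-type colonies. The mutants overlapped in Gins3, at 0.085 ± 0.22 (adjusted p = 0.87), and Gins4 was at 0.21 (adjusted p = 0.696).

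Of the 9 polymerase and primase genes, 4 rose. Pold3, an accessory subunit of polymerase delta, read -0.078, -0.64, -0.54 and -0.77 in double null, -1.02, -1.91, -2.01 and -1.51 in Bmi1 null and -1.96, -2.16, -1.86 and -1.67 in wild-type colonies. All double null colonies lay above the other 8, and Pold3 rose by 1.11 ± 0.25 (adjusted p = 0.0174). Pole, the catalytic subunit of the leading-strand polymerase epsilon, read -1.66, -2.33, -1.96 and -2.32 in double null, -2.82, -4.03, -2.74 and -2.89 in Bmi1 null and -1.82, -2.41, -1.88 and -1.98 in wild-type colonies. Double null colonies lay above all Bmi1 null colonies and overlapped wild type, and Bmi1 null colony 2 was far below the other 3; Pole rose by 1.05 ± 0.29 (adjusted p = 0.0469). Pole2, the second subunit of the same enzyme, rose by 1.05 ± 0.27 (adjusted p = 0.0362), and Pold2, a small subunit of polymerase delta, by 0.60 ± 0.17 (adjusted p = 0.0471).

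The genes of polymerase alpha and primase, which lay down each primer, were not called. Pola2 read -0.067, -0.93, -0.28 and -0.72 in double null, -1.29, -1.27, -0.78 and -0.86 in Bmi1 null and -3.01, -3.22, -2.72 and -2.18 in wild-type colonies. The mutants overlapped in Pola2 and all wild-type colonies were lower; the change between the mutants was 0.55 ± 0.27 (adjusted p = 0.256). The catalytic subunit Pola1 was at 0.96, and the primase subunits Prim1 and Prim2 were at 0.63 and 0.73, each without overlap between the mutants. Pold1, the catalytic subunit of polymerase delta, was at 0.59 (adjusted p = 0.112).

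In the clamp group 4 of 7 rose. Dscc1, a subunit of the alternative clamp loader that serves sister chromatid cohesion, read -1.26, -1.77, -1.52 and -1.49 in double null, -2.30, -3.22, -2.86 and -3.77 in Bmi1 null and -2.47, -2.62, -2.36 and -2.43 in wild-type colonies. Double null colonies were above all others and Bmi1 null colonies lay on both sides of the wild-type ones; Dscc1 rose by 1.53 ± 0.27, or 2.88-fold (adjusted p = 0.00567). These levels are of the brighter of its 2 probes, and the other probe was lower in both mutants than in wild type. Pcna, the sliding clamp itself, read 3.98, 3.80, 4.18 and 3.92 in double null, 2.94, 2.69, 2.58 and 2.86 in Bmi1 null and 0.59, 1.70, 1.61 and 2.35 in wild-type colonies. The 3 genotypes did not overlap, and wild-type colonies were the most spread. Pcna rose by 1.20 ± 0.30 between the mutants (limma, adjusted p = 0.0288). Its call ended in the authors' processed values (adjusted p = 0.0782), with quantile normalization (0.0964), with normexp (0.0592) and with slide as a fixed term (0.107).

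Subunits of the standard clamp loader, replication factor C, were unequal in size of change. Rfc1, its large subunit, rose by 1.10 ± 0.27 (adjusted p = 0.027), and Rfc3 by 0.87 ± 0.24 (adjusted p = 0.049). Rfc4 read -1.17, -1.46, -1.62 and -1.64 in double null, -1.40, -1.54, -1.78 and -1.36 in Bmi1 null and -1.78, -1.78, -1.64 and -1.85 in wild-type colonies. All 3 genotypes overlapped in Rfc4, whose change of 0.049 ± 0.18 was the smallest of the 47 (adjusted p = 0.914). Rfc2 was at 0.31 and Rfc5 at 0.33, both with overlap between the mutants and neither called.

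Of the 5 genes for strand binding and joining, 3 rose. Rpa2, the middle subunit of the complex that coats single-stranded DNA, read -0.031, -0.37, -0.26 and -0.16 in double null, -1.29, -1.50, -2.03 and -1.58 in Bmi1 null and -3.02, -2.64, -2.36 and -2.0005 in wild-type colonies. Every double null colony was above every Bmi1 null and wild-type colony, and Bmi1 null and wild-type colonies overlapped narrowly; Rpa2 rose by 1.39 ± 0.24, or 2.63-fold (adjusted p = 0.00487). Fen1, the nuclease that trims flaps of lagging-strand fragments, read 0.53, 0.14, 0.39 and -0.28 in double null, -0.84, -1.27, -0.82 and -1.11 in Bmi1 null and -1.14, -1.05, -0.92 and -0.75 in wild-type colonies. Double null colonies were above the other 8, which overlapped; Fen1 rose by 1.21 ± 0.21 (adjusted p = 0.00554). Lig1, the ligase that seals these fragments, rose by 1.13 ± 0.22 (adjusted p = 0.0101). Rpa3 read 0.59, 1.002, 0.80 and 0.74 in double null, 0.48, 0.036, 0.71 and 0.31 in Bmi1 null and -2.65, -1.99, -1.78 and -0.90 in wild-type colonies. The mutants overlapped in Rpa3 and were both above all wild-type colonies; the change between them was 0.40 ± 0.31 (adjusted p = 0.511). Rpa1, the large subunit, was at 0.84 without overlap between the mutants (adjusted p = 0.0938).

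Nucleotide supply held 3 of the 4 largest changes among the 47. Tk1, the thymidine kinase of the salvage pathway, read 3.53, 3.45, 3.33 and 3.23 in double null, 2.25, 1.85, 1.21 and 1.83 in Bmi1 null and 0.31, 0.82, 0.91 and 1.96 in wild-type colonies. All double null colonies lay above the other 8, and Bmi1 null and wild-type colonies overlapped; Tk1 rose by 1.60 ± 0.32, or 3.03-fold (adjusted p = 0.0103). Dut, which hydrolyses dUTP and so keeps uracil out of DNA, read 1.96, 1.55, 2.08 and 1.58 in double null, 0.34, -0.17, 0.31 and 0.35 in Bmi1 null and -0.72, 0.41, -0.04 and 0.57 in wild-type colonies. Double null colonies were all above the other 8, and Bmi1 null colony 2 was below its group; Dut rose by 1.58 ± 0.28 (adjusted p = 0.00543). Tyms, which makes thymidylate from deoxyuridylate, rose by 1.55 ± 0.28 (adjusted p = 0.0065). Ribonucleotide reductase, which makes deoxynucleotides from ribonucleotides, was not called in either subunit. Rrm2 read 1.16, 0.67, 0.64 and 0.20 in double null, 0.33, 0.16, -0.071 and 0.52 in Bmi1 null and -1.41, -0.51, 0.08 and 0.76 in wild-type colonies. The genotypes overlapped in Rrm2, with wild-type colonies the most spread; the change between the mutants was 0.43 ± 0.38 (adjusted p = 0.576), and that of Rrm1 was 0.67 ± 0.27 (adjusted p = 0.17).

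Of the 5 genes for fork protection and chromatin copying, 2 rose. Clspn encodes claspin, the adaptor that passes the checkpoint signal from stalled forks, and read -1.52, -2.06, -2.26 and -2.81 in double null, -3.26, -3.24, -4.17 and -4.54 in Bmi1 null and -2.12, -3.14, -2.49 and -2.22 in wild-type colonies. Double null colonies were above all Bmi1 null colonies and overlapped wild type; Clspn rose by 1.64 ± 0.36, or 3.11-fold (adjusted p = 0.0169). It was the largest of the 47 on this scale, but less the all-gene median it was 1.077 in the authors' processed values. There Clspn lay below Tk1 (1.52), Dut (1.43), Tyms (1.35), Rpa2 (1.20), Uhrf1 (1.18) and Mcm5 (1.15). It also lay below Dscc1 (1.13), Fen1 (1.10) and Mcm6 (1.082) there. Uhrf1, which brings the maintenance DNA methyltransferase to newly copied DNA, read 1.57, 1.29, 1.38 and 0.93 in double null, 0.19, -0.046, -0.38 and 0.22 in Bmi1 null and -0.31, -0.0076, 0.55 and 1.18 in wild-type colonies. The mutants did not overlap and wild type spread across both. Uhrf1 rose by 1.29 ± 0.30 (limma, adjusted p = 0.0213). Its call ended in the authors' processed values (adjusted p = 0.0625), with quantile normalization (0.0985) and with slide as a fixed term (0.0669). Chaf1b, of the chromatin assembly factor that places histones behind the fork, read 0.74, 1.10, 1.13 and 0.42 in double null, 0.30, 1.12, 0.79 and 0.51 in Bmi1 null and 2.66, 2.57, 2.73 and 2.86 in wild-type colonies. The mutants overlapped in Chaf1b, at 0.17 ± 0.23 (adjusted p = 0.735), and every wild-type colony was above both. Its partner Chaf1a was at 0.60 and the fork protein Tipin at 0.78, both without overlap between the mutants and not called.

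**Figure D2:**
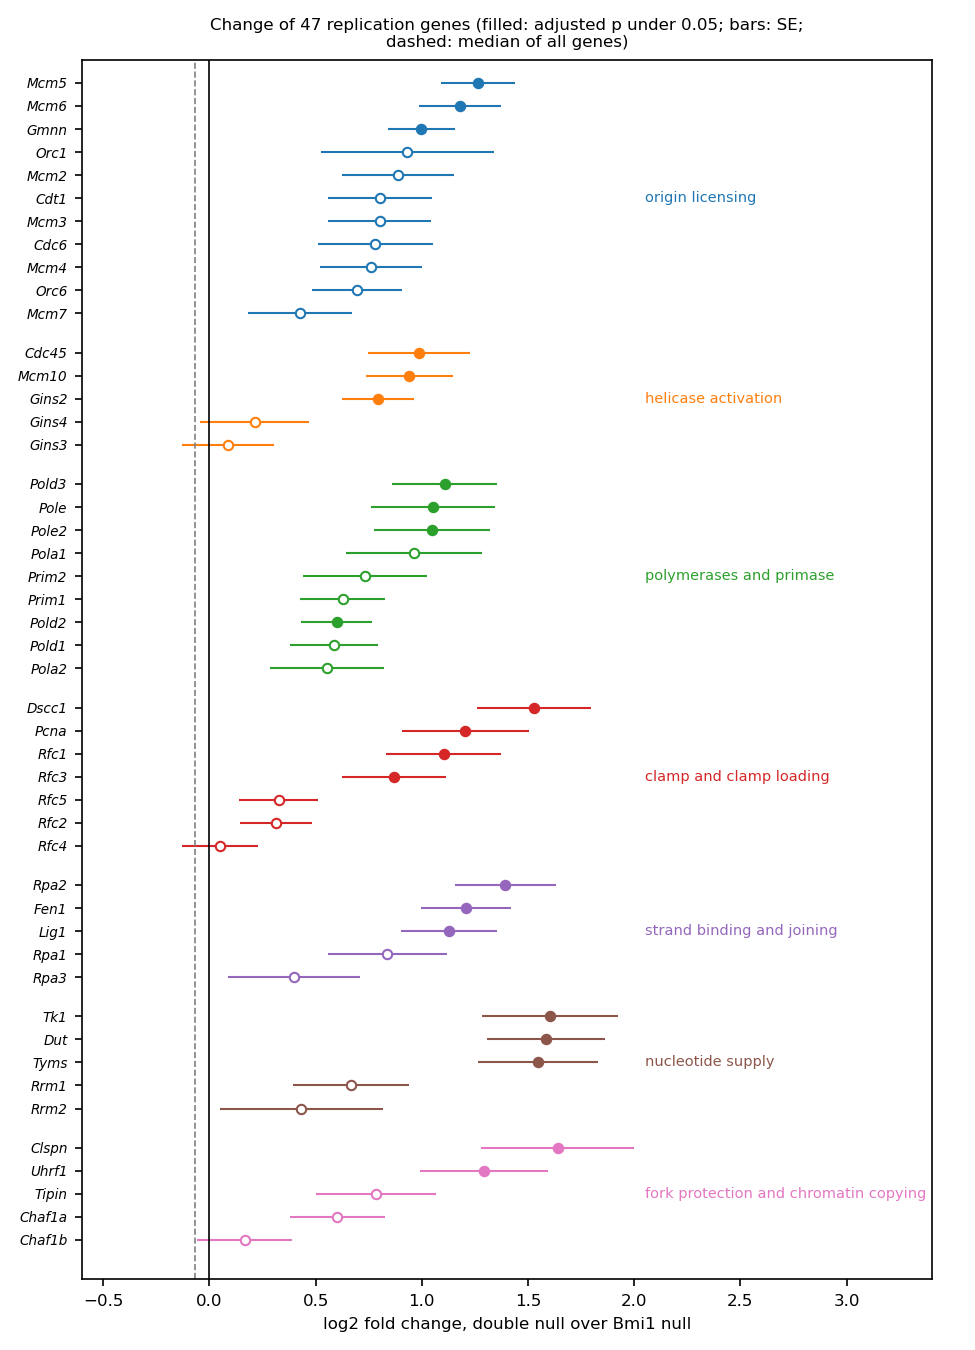
Log2 fold change of double null over Bmi1 null colonies (horizontal axis) for 47 replication genes, grouped by role, with bars of 1 standard error from the fit of all 12 arrays; filled points passed an adjusted p under 0.05, and the dashed line is the median of all genes, -0.070. Clspn, Tk1, Dut and Tyms lie farthest right, and Rfc4 and Gins3 lie nearest 0.

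**Figure D3:**
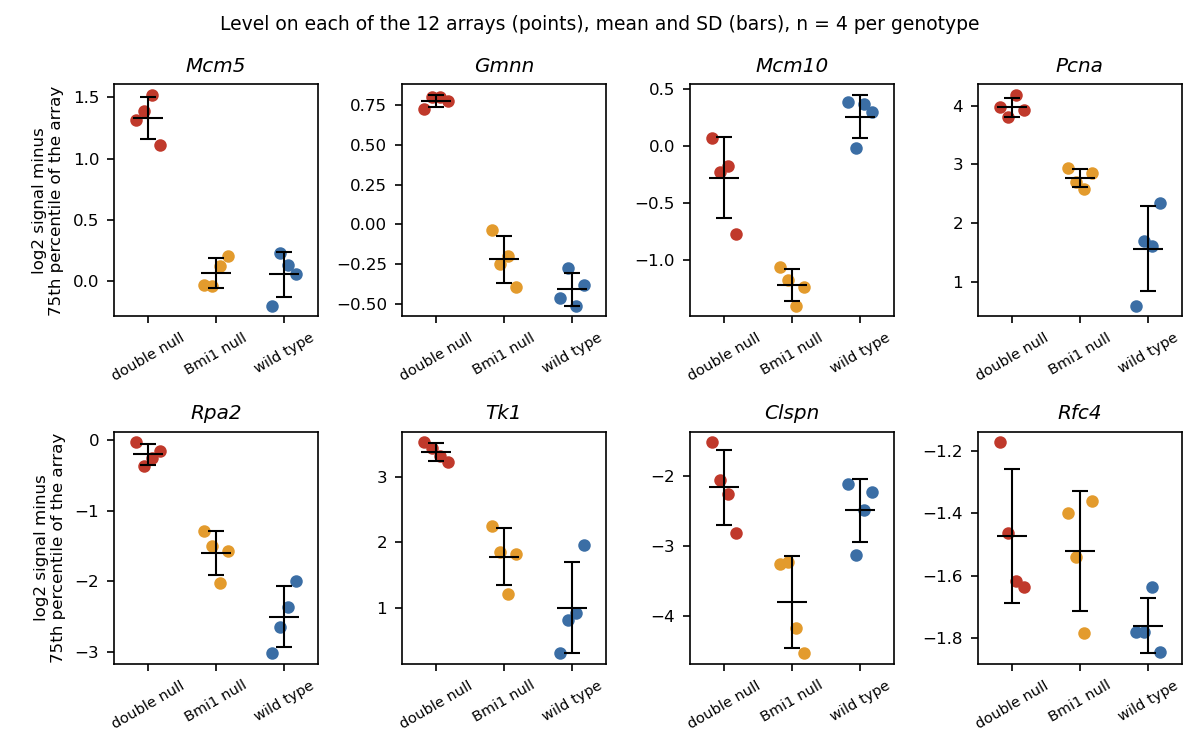
Level (log2 signal less the 75th percentile of its array; vertical axes differ between panels) of 8 replication genes on each array, with double null, Bmi1 null and wild-type colonies from left to right; bars are the mean and SD of 4 colonies. Double null points lie above all Bmi1 null points in every panel but that of Rfc4.

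The 8 genes with more than 1 probe were examined probe by probe. All 17 of their probes had a positive change in double null over Bmi1 null colonies, and 9 were called higher. No gene's probes disagreed in sign in this comparison.

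Over the 47 genes, the median level did not overlap between the genotypes, and it was most spread among wild-type colonies. It was 0.72, 0.65, 0.80 and 0.46 in double null, -0.027, -0.25, -0.31 and -0.18 in Bmi1 null and -1.04, -0.67, -0.78 and -0.42 in wild-type colonies. The median of all genes moved the other way against wild type: it was -2.47 to -2.05 in double null, -2.26 to -1.99 in Bmi1 null and -1.06 to -0.999 in wild-type colonies. The replication genes stood above that median by 2.78 to 3.09 in double null, by 1.74 to 2.23 in Bmi1 null and by -0.030 to 0.64 in wild-type colonies. Among the 8 mutant arrays, 46 of 47 genes were highest on a double null array, 24 of them in colony 1 and 13 in colony 3. Double null colony 1 stood apart in spot quality, with 1336 outlier spots left out, against 55 to 132 on each other array; without it 17 of the 47 were called higher between the mutants. All 47 were lowest on a Bmi1 null array, 20 in colony 2 and 16 in colony 3.

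**Figure D4:**
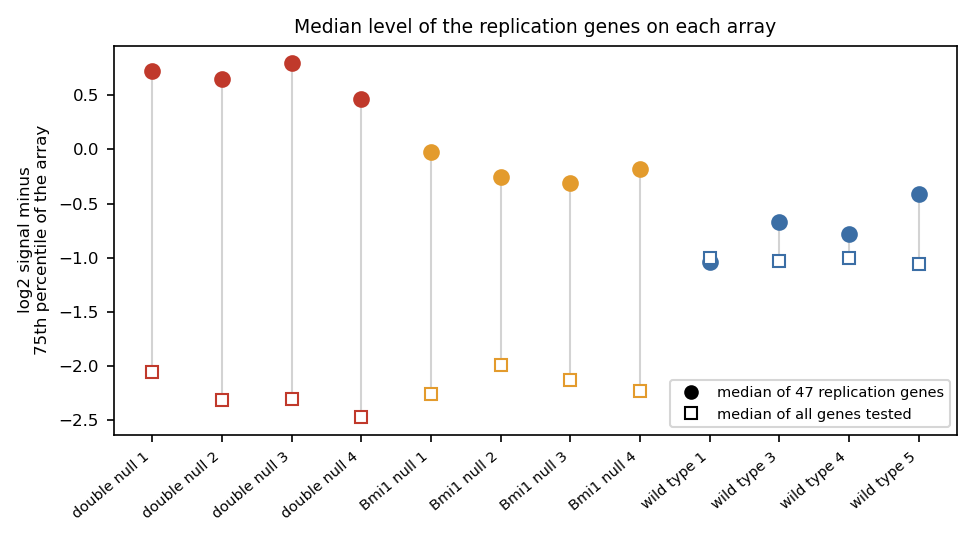
Median level (log2 signal less the 75th percentile of its array, vertical axis) of 47 replication genes (filled circles) and of all genes tested (open squares) on each of the 12 arrays. The circles are highest in double null colonies, from 0.46 to 0.80, and the squares are near -1 in wild-type colonies and near or below -2 in both mutants.

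Genes around these 47 were counted in 3 further lists. Of 33 other replication factors, 8 rose and 0 fell in double null over Bmi1 null colonies, beside 2.75% and 4.8% of all genes. Their median change was 0.55. Top2a, the topoisomerase that untangles sister DNA molecules, was at 2.23 ± 0.26 in double null and 0.65 ± 0.30 in Bmi1 null colonies (SD, n = 4 each). It rose by 1.59 ± 0.33 (limma, adjusted p = 0.0133). Its call ended with quantile normalization (adjusted p = 0.0779) and in the authors' processed values (0.0542). Atad5, which unloads Pcna, rose by 1.37 ± 0.25 (adjusted p = 0.00673). Asf1b, a histone chaperone, rose by 1.23 ± 0.18 (adjusted p = 0.00247). Exo1, an exonuclease of mismatch repair, rose by 1.07 ± 0.23, and Ticrr, which helps origins fire, by 1.04 ± 0.25 (adjusted p = 0.0136 and 0.0266). The call of Ticrr ended without Bmi1 null colony 4, double null colony 1 or double null colony 3.

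Of 30 other enzymes of nucleotide synthesis tested, 4 rose and 0 fell, beside 2.75% and 4.8% of all genes. Their median change was 0.19. Mthfd2, an enzyme of mitochondrial folate metabolism, rose by 1.13 ± 0.28 (adjusted p = 0.0303). Umps, which completes uridylate, rose by 1.04 ± 0.27 (adjusted p = 0.0377), although with the mean of its probes the change was 0.50 (adjusted p = 0.158). Paics, of purine synthesis, rose by 0.95 ± 0.20, and Ctps2, which makes CTP, by 0.93 ± 0.23 (adjusted p = 0.0136 and 0.03). Calls ended without any of 4 arrays for Mthfd2 (Bmi1 null colonies 1, 3 and 4 and double null colony 2), without any of 6 for Ctps2 and without any of 8 for Umps.

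Of 31 regulators of S phase entry, 3 rose and 3 fell, beside 2.75% and 4.8% of all genes. Their median change was 0.15. E2f2, an activating E2F factor, was at 0.93 ± 0.30 in double null and -0.74 ± 0.48 in Bmi1 null colonies (SD, n = 4 each) and rose by 1.67 ± 0.26 (adjusted p = 0.00301). Ccna2, cyclin A of S phase, rose by 1.20 ± 0.20 (adjusted p = 0.00398), and Ccne2, a cyclin E, by 1.004 ± 0.19 (adjusted p = 0.00758). The 3 that fell, Cdkn2a, Cdkn1c and Cdkn1a, encode kinase inhibitors. Cdkn1c fell by 2.13 ± 0.33 on the log2 scale (adjusted p = 0.00283). Cdkn1a read 3.57, 3.09, 3.32 and 3.81 in double null, 4.41, 4.71, 4.76 and 4.56 in Bmi1 null and 0.99, 1.90, 0.74 and 1.42 in wild-type colonies. The 3 genotypes did not overlap, with Bmi1 null highest and wild type lowest, and Cdkn1a fell by 1.16 ± 0.26 between the mutants (adjusted p = 0.0174). Its call ended without double null colony 3 (adjusted p = 0.0515).

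With slide as a fixed term, Asf1b, Ccna2, Cdkn1c and Cdkn2a stayed called, while Top2a, Atad5, Exo1, Ticrr, Mthfd2, Umps, Paics, Ctps2, E2f2 and Cdkn1a kept their direction without a call.

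Markers of cell types were counted beside these results. Between the mutants, 3 epithelial markers rose (Cldn7, Epcam and Cldn1) and 1 fell (Col17a1) of 16, and 2 of 13 squamous differentiation markers fell (Lor and Sprr1b). Of all genes, 2.75% were called higher and 4.8% lower. None of 16 mesenchymal, 13 immune, 10 endothelial and 7 ameloblast markers was called in limma at an adjusted p under 0.05. The log2 of the epithelial list's summed signal ranged from 9.11 to 10.01 in double null and from 9.11 to 9.57 in Bmi1 null colonies. That of the squamous list ranged from 7.71 to 9.66 in double null and from 9.01 to 9.47 in Bmi1 null colonies. All 16 epithelial markers were well above background on every array, and the ameloblast markers Ambn, Mmp20 and Dspp were so on no mutant array. The part of cell type makeup in the replication genes' change was not tested.

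The comparisons of each mutant with wild type ask how replication genes stand after loss of Bmi1, with or without the Ink4a/Arf locus. Against wild type, 37 of 47 replication genes rose in double null colonies and 5 fell, beside 25.5% and 59.9% of all genes. In Bmi1 null colonies 22 of 47 rose and 10 fell, beside 25.2% and 58.3% of all genes. The all-gene median was itself at -1.41 in double null and -1.24 in Bmi1 null over wild type; with that subtracted, the 47 had a median log2 fold change of 2.72 in double null and 1.75 in Bmi1 null colonies. Quantile normalization gave 1.66 and 0.78 in the same order, with 37 called higher and 4 lower in double null and 27 higher and 4 lower in Bmi1 null colonies. There 34.1% of all genes were called higher and 38.7% lower in double null, and 33.9% and 38.4% in Bmi1 null colonies. Both comparisons share the 4 wild-type arrays, whose narrower range of signals was given above; its part in these values was not tested.

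Because scaling moves these comparisons, calls were read across the 4 scalings. In double null over wild-type colonies 32 of 47 were called higher in all 4 scalings, beside 22.3% of all genes, and 1 was called lower in all 4 (Chaf1b), beside 29.6%. Gins3, Lig1 and Mcm10 were called higher under 1 or more scalings and lower under others. In Bmi1 null over wild-type colonies 18 were called higher in all 4 scalings, beside 21.8% of all genes. Chaf1b and Mcm10 were called lower in all 4, beside 29.3%.

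By role, the 5 genes of strand binding and joining and the 5 of nucleotide supply all rose in double null over wild-type colonies (Lig1 and Rrm2 not under every scaling). In Bmi1 null over wild-type colonies 3 and 1 of them rose, and 1 fell in each group. These were Lig1 (-0.57, limma, adjusted p = 0.0305) and Tyms (-0.67, adjusted p = 0.041), neither called lower in all 4 scalings. Prim2 read -1.30, -1.24, -1.31 and -1.25 in double null, -1.84, -1.996, -1.97 and -2.22 in Bmi1 null and -3.89, -5.38, -4.01 and -3.96 in wild-type colonies. Both mutants were above all wild-type colonies, of which colony 3 was not well above background, and after subtraction of the all-gene median Prim2 stood 4.44 higher in double null and 3.54 higher in Bmi1 null over wild-type colonies. In the authors' processed values Prim2 stood 2.74 and 2.15 higher, below Rpa3 at 2.97 and 2.70, in the same order. Rpa3, given above, stood 4.02 and 3.45 higher, and Pcna 3.81 and 2.44 higher, in the same order. Tk1 stood 3.79 higher in double null and 2.02 higher in Bmi1 null colonies. Quantile normalization gave Pcna 1.66 in double null and 0.58 in Bmi1 null over wild type, and Tk1 1.82 and 0.39. All 4 of these genes passed the test upward in both comparisons (adjusted p from 1.06e-06 to 0.0365), but in Bmi1 null colonies the calls of Pcna and Tk1 ended with quantile normalization (adjusted p = 0.259 and 0.532), and that of Tk1 also without any of 6 of the 12 arrays.

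Some replication genes were near or below wild type in Bmi1 null colonies on the 75th percentile scale. The origin recognition subunit Orc1 was at -1.60 ± 0.32 in double null, -2.53 ± 1.04 in Bmi1 null and -0.999 ± 0.19 in wild-type colonies (SD, n = 4 each), with an adjusted p of 0.182 in double null and 0.00364 in Bmi1 null over wild type. The change of Orc1 in double null over wild type was above 0 under each of the other 3 scalings. Clspn was called lower in Bmi1 null over wild type (-1.31 ± 0.36, adjusted p = 0.00464). Its change in Bmi1 null was positive, 0.52, with quantile normalization. For double null over wild type, 3 of the 4 scalings gave Clspn an upward call. The exception was the 75th percentile scale, where it was not called (0.33 ± 0.36, adjusted p = 0.401). On this scale Cdc6, Gins3, Rfc5 and Chaf1b were called lower in both mutants, but the changes of Gins3 in both mutants and of Cdc6 in double null colonies were above 0 under all of the other 3 scalings. Mcm10 was called lower too, with -0.53 in double null and -1.47 in Bmi1 null over wild type. Lig1, Tyms and Pole were called lower in Bmi1 null over wild type as well. Pole was at -1.10 there (limma, adjusted p = 0.00358), but at 0.38 with quantile normalization. Less the all-gene median, the change of Chaf1b in double null over wild type was -0.45 but -2.54 with quantile normalization, and that of Rfc5 was 0.36 but -1.74. Mcm10 in double null turned to a call upward with median scaling (0.51, adjusted p = 0.0279). The 2 probes of Dscc1 disagreed in sign in double null over wild type, at 0.96 for the probe used and -1.72 for the other, both called. In Bmi1 null over wild type they were at -0.57 and -3.07, and only the second was called. The probes of Pold3 disagreed in sign in Bmi1 null over wild type.

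**Figure D5:**
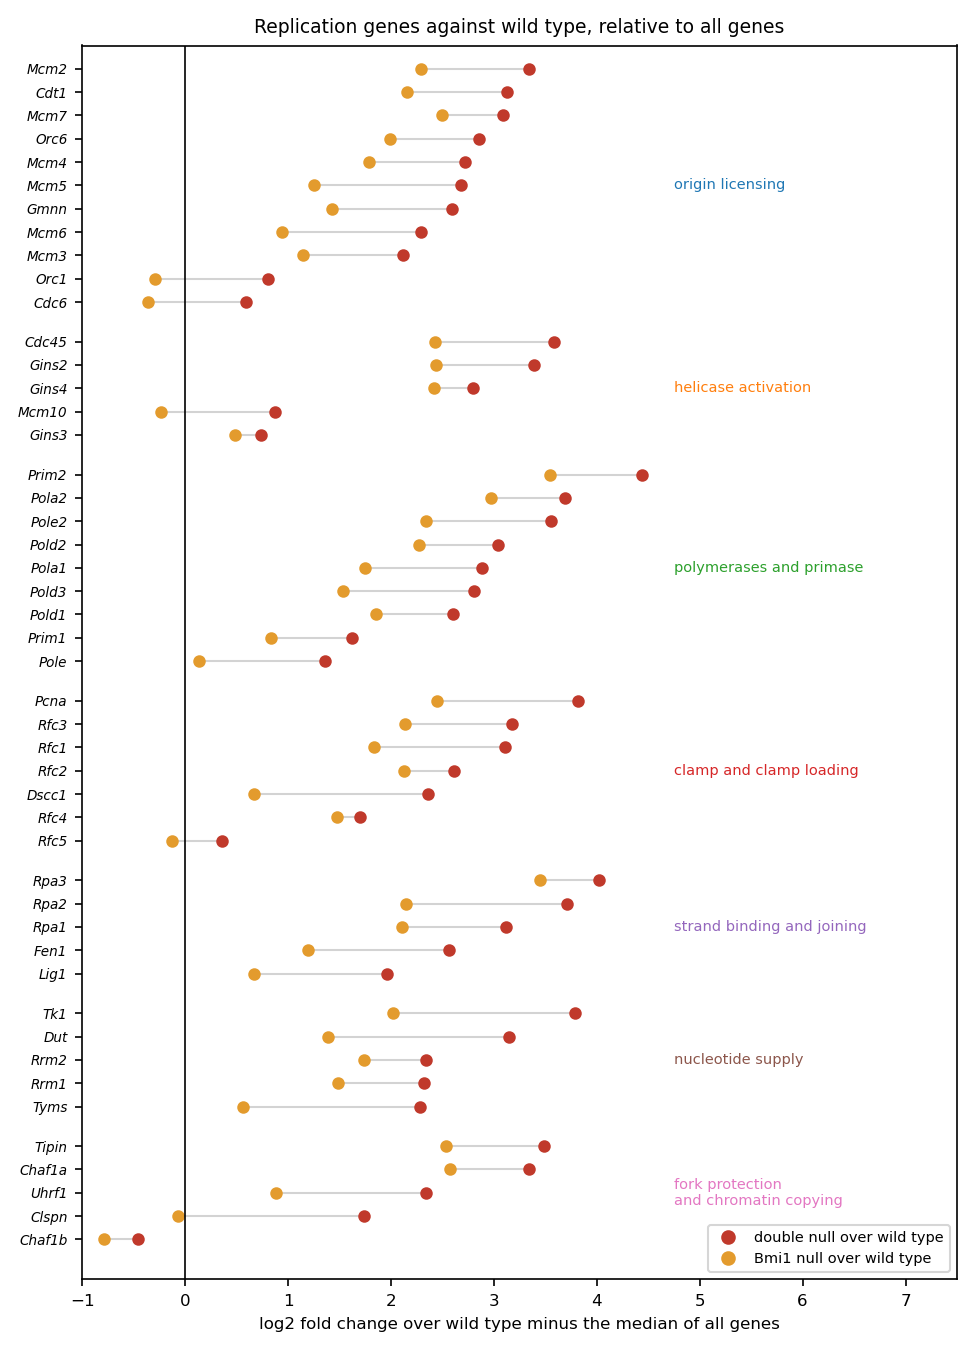
Log2 fold change over wild type minus the median change of all genes (horizontal axis) for 47 replication genes grouped by role, in double null (red) and Bmi1 null colonies (orange), joined by a line. All genes but Chaf1b lie right of 0 in double null colonies, and 41 of 47 do in Bmi1 null colonies.

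Cell type markers differed against wild type as well, on a scale where 59.9% of all genes were called lower in double null and 58.3% in Bmi1 null, and 25.5% and 25.2% higher. All 13 immune and all 10 endothelial markers were called lower in both mutants, and 15 of 16 epithelial markers were called higher in double null and 14 of 16 in Bmi1 null over wild-type colonies. The log2 summed signal of the immune list was 0.57 to 1.26 in double null, 0.86 to 1.22 in Bmi1 null and 3.67 to 4.02 in wild-type colonies, and all 13 were well above background on every wild-type array. That of the endothelial list was 0.42 to 0.92 in double null, 0.58 to 1.07 in Bmi1 null and 2.45 to 2.83 in wild-type colonies, and that of the epithelial list was 9.11 to 10.01, 9.11 to 9.57 and 7.27 to 8.77 in the same order. Of 13 squamous markers, 5 were called higher and 3 lower in double null and 9 higher and 3 lower in Bmi1 null over wild type, with a log2 summed signal of 7.71 to 9.66 in double null, 9.01 to 9.47 in Bmi1 null and 5.43 to 6.70 in wild-type colonies. Of 7 ameloblast markers 6 were called lower in each mutant, with a median change of -4.07 in double null and -3.94 in Bmi1 null over wild type. Of 16 mesenchymal markers, 2 were called higher and 8 lower in double null and 2 higher and 9 lower in Bmi1 null, while their log2 summed signal was 6.08 to 7.36 in double null, 5.84 to 6.43 in Bmi1 null and 5.18 to 5.69 in wild-type colonies. The part of these markers in the replication genes' values against wild type was not tested.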

How the data were processed

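RNA of 12 single colonies, amplified and labelled with Cy3 per the labels' protocols, was hybridised to Agilent arrays. The authors deposited 1 scanner file per colony, with intensity per spot made by Feature Extraction 10.7.3.1, per the file headers, and a table of processed log2 values per probe, deposited with no statement of its normalization. That table's column medians were 7.21 to 7.24 and it correlated with the log2 spot median at 0.992 to 0.999 per array.

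The processed intensity was log2-transformed and each array's 75th percentile subtracted. Control spots and outlier flags were left out. Probes well above background on at least 3 of 4 arrays of a genotype were kept, and the brightest probe stood for a gene. Accessions, without versions, gave 1 symbol for 24844 of 41174 probes, several for 0 and none for 16330 (RefSeq, GRCm38.p6); the last kept the design's name. All 12 arrays entered 1 fit (lmFit and eBayes of limma 3.58.1 under R 4.3.3; 9 residual degrees of freedom), with Benjamini-Hochberg adjustment over 31064 genes. The script was tested on simulated data. Changes of probes below background in 1 genotype are bounds against the lowest signal well above background. Normexp (offset 50) used the spots' median signal.

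Members, roles and lists were chosen with earlier results of these data known. Values on every array are given, per role, for the 2 largest and the smallest change between the mutants, and for Pcna, Mcm2 and Rrm2; up to 5 called genes were named per further list, and promoters of the largest called rise per role, at most 5. Ccne2 and the called cell type markers were named after their values were seen. The number of arrays limits the precision. Arrays shared 5 slides: slide 1 held wild type 1 and 4 and Bmi1 null 1 and 4, slide 2 double null 3, Bmi1 null 2 and wild type 3, slide 3 double null 1 and 4 and Bmi1 null 3, and slides 4 and 5 wild type 5 and double null 2. Alternatives were scaling, background correction, dim-probe filter, probe choice, slide, replicate block, the arrays in the fit and leaving out each array.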

Additional observations from a re-analysis of the deposited data

Results flagged for a closer look

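In 6 of 186 groups of 4 colonies, 1 colony lay far from the other 3, by a test that chance passes in about 1 in 20 groups. Orc1 was at -4.09 in Bmi1 null colony 3, while the other 3 lay between -2.08 and -1.92. Pole was at -4.03 and Dut at -0.17 in Bmi1 null colony 2, below ranges of -2.89 to -2.74 and 0.31 to 0.35. Mcm6 was at 0.68 in double null colony 2, above 0.54 to 0.55. Prim2 was at -5.38 in wild-type colony 3, the array where it was not well above background, below -4.01 to -3.89. Bmi1 was at -2.14 in Bmi1 null colony 4, above -2.46 to -2.42.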

How the results depend on the processing

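Between the mutants, 22 of 47 replication genes were called higher and the median log2 change was 0.84; the alternatives gave 3 to 27 calls and medians of 0.74 to 0.99, always with 0 called lower. The count was 14 with quantile normalization, 3 with slide as a fixed block and 14 to 23 with 1 array left out (14 without double null colony 3). The within-slide median was 0.99 in slide 2. In double null over wild type, 37 were called higher (34 to 42 under the alternatives); the number called lower was 5, and 1 with median scaling, 3 with normexp, 3 in the authors' table and 2 with the slide block (4 to 6 with 1 array left out). The median of 1.31 was 2.36 with median scaling, 1.54 with quantile normalization, 1.03 with normexp, 1.49 in the authors' table, 1.51 with the slide block and 1.17 to 1.49 with 1 array left out. For Bmi1 null over wild type, the 22 called higher were 35 with median scaling, and the 10 called lower were 3 with median scaling, 6 in the authors' table and 4 with quantile normalization. The median of 0.51 was 1.45 with median scaling, 0.64 with quantile normalization, 0.33 with normexp, 0.73 with the slide block, 0.85 within slide 1, 0.36 within slide 2, and 0.28 (without wild-type colony 1) to 0.74 (without wild-type colony 5) with 1 array left out. Deviations of same-numbered arrays from their group means correlated at r from -0.14 to 0.22. Low correlations between single arrays cannot exclude a pairing, so whether the numbers pair the arrays was not settled. The replicate block gave 17 calls between the mutants, beside 1.63% of all genes called higher, and medians of 1.47 in double null and 0.71 in Bmi1 null over wild type. The cause of these shifts was not tested.

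Directions turned for these genes. With normexp Cdkn2a was at 0.055 between the mutants and -0.14 in Bmi1 null over wild type; in double null over wild type, where neither genotype had signal well above background, it was at 0.13 in the authors' table and 0.52 with quantile normalization. With median scaling, double null over wild type gave Mcm10 0.51, Gins3 0.38 and Pole 0.996, and Bmi1 null over wild type gave Mcm6 0.64, Gins3 0.19, Fen1 0.90, Asf1b 0.18, Ticrr 0.29, Ctps2 0.26, E2f2 0.27 and Ccna2 0.92. With quantile normalization, double null over wild type gave Gins3 0.62 and Pole 1.38, and Bmi1 null over wild type gave Gins3 0.45, Pole 0.38, Dscc1 1.15, Fen1 0.57, Clspn 0.52, Ticrr 0.53 and Ccna2 0.78. In the authors' table, double null over wild type gave Gins3 0.33 and Pole 1.09, and Bmi1 null over wild type gave Gins3 0.22, Pole 0.42, Dscc1 0.54, Fen1 0.51, Clspn 0.22, Ticrr 0.42 and Ccna2 0.68. With the mean of its probes Dscc1 was at -0.38 in double null over wild type. The other genes given array by array turned in none of the settings, apart from changes not called either way. So it was for the other genes named by rule from the replication, nucleotide and S phase lists. Values of Ccne2 and the named cell type markers under these settings are not given here. Over all genes, 855 were called higher and 1492 lower between the mutants, beside 1027 and 1171 with median scaling, 525 and 852 with quantile normalization, 619 and 482 with normexp, 952 and 999 in the authors' table and 98 and 197 with the slide block. Normexp moved the median of all genes between the mutants to 0.30, and the replication genes' median was 0.74 there.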

Other observations

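The other replication factors and nucleotide enzymes were also measured against wild type, where 25.5% of all genes were called higher and 59.9% lower in double null, and 25.2% and 58.3% in Bmi1 null colonies. Of 33 other replication factors, 21 rose and 2 fell in double null and 16 rose and 10 fell in Bmi1 null over wild-type colonies. Top2a rose by 1.98 ± 0.33 (SE) in double null (limma, adjusted p = 1.11e-04) and was at 0.39 ± 0.33 in Bmi1 null over wild type (adjusted p = 0.286). Of 30 other nucleotide enzymes, 21 rose and 5 fell in double null and 18 rose and 6 fell in Bmi1 null over wild-type colonies. Paics rose by 1.28 ± 0.20 in double null (adjusted p = 5.81e-05) and was at 0.33 ± 0.20 in Bmi1 null over wild type (adjusted p = 0.136). Both comparisons share the wild-type arrays, and their all-gene medians of -1.41 in double null and -1.24 in Bmi1 null lie below 0.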
